A study of Homo sapiens with 8 samples.

Results

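Genes of neurotrophin and GDNF (glial cell line-derived neurotrophic factor) signaling were examined in normal and inflamed human intestinal epithelial cells (hIECs) with or without particulate matter 10 (PM10). The members were the rows named BDNF, NTF3, GDNF, NTRK2, NTRK3, NGFR, RET or GFRA1, which gave 8 of the 60558 genes listed for each library. They were picked by name, with earlier results of these data known. RNA-seq covered 8 libraries in 4 groups of 2, all from 2D hIECs made by passing H9, a widely used line of human embryonic stem cells, through definitive endoderm and hindgut stages. Normal hIECs received neither agent. Normal hIECs with PM10 received 100 μg/ml PM10, a coarse air-pollution particle preparation, for 7 days. Inflamed hIECs were kept for 10 days with the inflammatory cytokines IFNγ at 50 ng/ml and TNFα at 50 ng/ml. Inflamed hIECs with PM10 received both cytokines for 10 days and 100 μg/ml PM10 for the last 7 days. Treatment of every group was labelled as lasting 10 days. All groups rest on 1 stem cell line, no label or method states that the 2 libraries of a group came from separate cultures, and the p-values below measure the spread between these libraries, which may be technical.

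Neurotrophins are secreted growth factors that keep neurons alive and guide their axons. BDNF signals mainly through the receptor tyrosine kinase TrkB, encoded by NTRK2, and neurotrophin-3, encoded by NTF3, mainly through TrkC, encoded by NTRK3, while the p75 receptor, encoded by NGFR, binds every mature neurotrophin and, with sortilin, their uncut proforms. GDNF binds the membrane-anchored co-receptor GFRA1, and the pair then activates the receptor tyrosine kinase RET. In the gut, GDNF and RET are known for the colonization of the bowel by enteric neural crest cells, and neurotrophins are made by several cell types of the bowel wall.

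Promoter sequence is shown for 3 members whose groups with and without cytokines did not overlap, NTF3 and NTRK2, which were lower with cytokines, and GFRA1, which was higher. Each line gives the 250 bases before 1 RefSeq start (GRCh38.p14), on the strand of the gene and 5′ to 3′, from a window that holds no annotated exon. The NTF3 window is chr12:5431858-5432107 on the plus strand, the NTRK2 window is chr9:84701355-84701604 on the plus strand, before the farthest downstream of its 4 listed starts, and the GFRA1 window is chr10:116255796-116256045 on the minus strand, before the farthest downstream of its 4 listed starts.
NTF3: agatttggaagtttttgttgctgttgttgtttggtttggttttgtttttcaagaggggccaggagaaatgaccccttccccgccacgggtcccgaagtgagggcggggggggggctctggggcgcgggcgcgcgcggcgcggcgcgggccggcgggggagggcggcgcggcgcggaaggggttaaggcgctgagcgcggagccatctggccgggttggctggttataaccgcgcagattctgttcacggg
NTRK2: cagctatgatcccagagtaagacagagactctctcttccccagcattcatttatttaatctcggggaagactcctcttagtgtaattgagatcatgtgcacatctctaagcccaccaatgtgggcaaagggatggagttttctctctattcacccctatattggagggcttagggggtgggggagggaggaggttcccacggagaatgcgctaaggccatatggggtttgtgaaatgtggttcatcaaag
GFRA1: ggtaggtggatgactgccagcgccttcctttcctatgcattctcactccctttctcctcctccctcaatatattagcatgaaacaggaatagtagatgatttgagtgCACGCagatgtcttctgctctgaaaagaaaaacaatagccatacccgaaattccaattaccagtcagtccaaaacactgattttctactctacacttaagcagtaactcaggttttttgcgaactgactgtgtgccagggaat

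Capitals mark the only match, in either orientation, to any of 4 short motifs. It is the core of the aryl hydrocarbon receptor site (GCGTG), read on the opposite strand of the GFRA1 window and beginning 143 bases before the start, and 32.2% of 35116 RefSeq promoter windows of the same length hold that core. The IRF-type core GAAANNGAA was in 6.88% of all windows, the NF-κB-type motif GGNNTTTCC in 5.48% and the cAMP response element TGACGTCA in 1.65%, and none of these 3 was found in the 3 windows shown. RefSeq listed promoter windows for 7 of the 8 members, 22 starts in all. Another GFRA1 start had 1 match to the NF-κB-type motif, 150 bases before it, and BDNF had 1 match to the IRF-type core, 88 bases before 1 of its starts. The core GCGTG also lay 200 bases before that other GFRA1 start and 165 bases before another NTRK2 start. It was further found 126 and 93 bases before GDNF starts and 167 bases before a RET start. These are matches of letters and say nothing of binding.

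The labelled cell type was checked against its markers. Of 14 intestinal epithelial markers, 11 were listed at 0 in all 8 libraries, among them CDX2, VIL1, MUC2, LYZ and CHGA, and of the other 3 only LGR5, a stem cell receptor, reached 1 FPKM, a read level scaled by transcript length and library depth, in at least 2 libraries. Of 14 general epithelial markers, 6 were at 0 throughout, EPCAM reached no more than 0.622 FPKM, and CDH1 was above 0 in 1 library, while KRT8 lay between 185 and 383 FPKM. Of 14 mesenchymal markers, 12 reached 1 FPKM in at least 2 libraries, with a summed level of 2455 to 3070 FPKM, and 6 of 8 smooth muscle markers and 9 of 13 neuronal markers did so too. The RNA of these libraries therefore goes against the epithelial label for most of its defining genes, and the name hIEC is used below only as the label of the cultures. By contrast, the authors reported CDX2, VIL1, MUC2, LYZ and CHGA in their hIECs by quantitative PCR and immunostaining, which were not examined here. In bulk RNA, fewer cells of a type and less RNA per cell cannot be told apart.

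**Figure D1:**
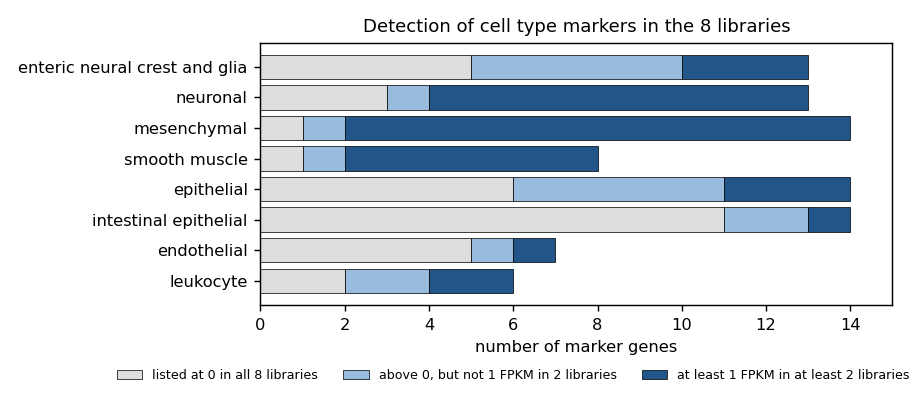
Number of marker genes of 8 cell types (horizontal axis) that were listed at 0 in all 8 libraries (grey), were above 0 without reaching 1 FPKM in 2 libraries (light blue) or reached 1 FPKM in at least 2 libraries (dark blue). The intestinal epithelial bar is grey for 11 of its 14 genes, and the mesenchymal bar is dark blue for 12 of 14.

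The files hold no read counts. The lowest value above 0 of a library, 0.164 to 0.228 FPKM, was taken as a mean depth of 1 read over the transcript, so 1 FPKM corresponded to a depth of 4.38 to 6.11, and genes below that lowest value are listed at 0. Between 16547 and 18926 genes were above 0 in a library, and mitochondrial genes took 15.5% to 24.2% of the FPKM. Averaged over the libraries, the FPKM of GFRA1 stood at percentile 79.7 of the 21400 genes detected anywhere, that of BDNF at percentile 73.1, and those of NGFR, NTRK3, NTF3 and NTRK2 between percentiles 39.5 and 48.2. GDNF and RET were listed at 0 in every library, so mRNA of neither the ligand nor the signaling receptor of the GDNF system was detectable at this depth.

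In normal hIECs the ligand BDNF and the co-receptor GFRA1 had the highest levels of the 8 genes. BDNF averaged 9.38 ± 1.06 FPKM (SD, n = 2) and GFRA1 8.78 ± 0.631 FPKM, and their library values overlapped. NGFR followed at 4.09 ± 0.0727 FPKM. NTF3 at 2.78 ± 0.320 FPKM and NTRK2 at 2.58 ± 0.414 FPKM overlapped each other, and NTRK3 was the lowest of the detected members at 2.06 ± 0.271 FPKM. In inflamed hIECs the order became GFRA1, BDNF, NTRK3, NGFR and NTF3, with no overlap between neighbours and NTRK2 listed at 0, and in inflamed hIECs with PM10 NTF3 stood above NGFR, again with no overlap.

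**Figure D2:**
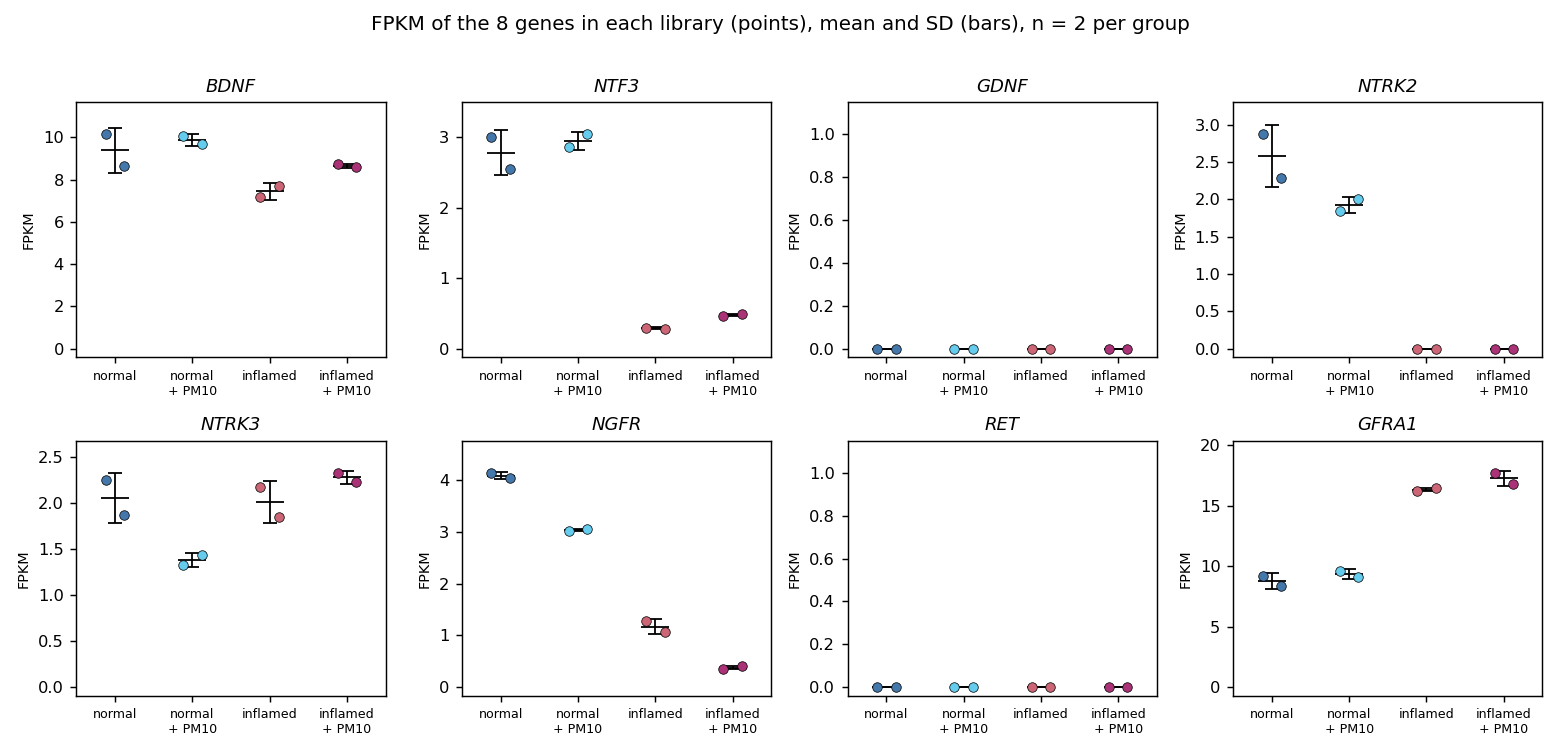
FPKM (vertical axes, each panel with its own scale) of the 8 genes in the 4 groups, with a point per library and bars for the mean and SD of the 2 libraries. NTF3, NTRK2 and NGFR are lower and GFRA1 is higher in all 4 libraries with cytokines than in all 4 without, and GDNF and RET lie at 0.

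Differences were tested with limma on log2(FPKM + 1) over all 8 libraries, which understates the change of low genes, for the 14206 genes that reached 1 FPKM in 2 or more libraries, and a gene was called when its Benjamini-Hochberg adjusted p was under 0.05. Of the 8 members 6 passed this minimum. NTF3 and NTRK2 passed it only through the 4 libraries without cytokines, so a difference between those groups was built into their being tested, and for both genes the cytokine comparisons are described without a p. A permutation test of 2 against 2 libraries could not give an exact p under 0.333, so none was used.

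The comparison of inflamed with normal hIECs asked what 10 days of IFNγ and TNFα did in the absence of particles. Apart from NTF3 and NTRK2, it called 3 of 4 members, NGFR and BDNF lower and GFRA1 higher, and NTRK3 was not called. Of all genes tested, 56.2% were called, 30.3% lower and 25.9% higher, so a called member was the usual case. The same comparison in the presence of PM10 used 4 other libraries. Of the same 4 members it called 3, NGFR lower and GFRA1 and NTRK3 higher, against 65.4% of all genes, 39.6% lower and 25.8% higher. NGFR was lower and GFRA1 higher in both comparisons. Among all genes tested, 27.4% were called lower in both and 20.9% higher in both. The median difference over all genes was -0.03 without and -0.11 with PM10.

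The mRNA of neurotrophin-3, the ligand of TrkC, was scarce in cultures with cytokines. NTF3 measured 3.00 and 2.55 FPKM in the normal libraries and 2.85 and 3.03 FPKM with PM10. In inflamed hIECs it measured 0.301 and 0.284 FPKM, and with PM10 0.465 and 0.489 FPKM. Every library with cytokines lay below every library without them. The means were 2.78 and 0.292 FPKM without PM10, a 9.49-fold difference, and 2.94 and 0.477 FPKM with PM10, a 6.17-fold difference. The inflamed values correspond to a depth of only 1.32 and 1.35, and those with PM10 to 2.20 and 2.31, close to the lowest value the files list, so the size of the fold is uncertain.

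The TrkB receptor gene NTRK2 was at 2.87 and 2.28 FPKM in normal hIECs and at 1.85 and 2.00 FPKM with PM10, a depth of 8.52 to 17.5. It was listed at 0 in all 4 libraries with cytokines. The groups with and without cytokines did not overlap, and no fold is given against a group at 0. NTRK2 spans chr9:84668375-85095751 and has 58 annotated transcripts, including forms without the kinase domain, which a value per gene does not separate.

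The p75 receptor gene NGFR was the only member lower in all 4 comparisons. It measured 4.14 and 4.03 FPKM in normal hIECs and 3.02 and 3.05 FPKM when these had received PM10. Inflamed hIECs had 1.27 and 1.07 FPKM, and the same cultures given PM10 had 0.354 and 0.401 FPKM. No 2 groups overlapped. The cytokine difference was 3.49-fold without PM10 (log2 difference -1.23, SE 0.082, limma adjusted p = 1.72e-05) and 8.03-fold with PM10 (-1.55, SE 0.082, adjusted p = 3.90e-06). The lowest pair of values corresponds to a depth of 1.68 and 1.89.

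The ligand gene BDNF moved little. Its libraries stood at 10.1 and 8.64 FPKM in normal hIECs, 10.1 and 9.67 FPKM with PM10, 7.16 and 7.71 FPKM in the inflamed group, and 8.71 and 8.59 FPKM when that group was given PM10. The inflamed values lay below those of all other groups. BDNF fell by 0.30 on the log2 scale with cytokines alone (SE 0.080, limma adjusted p = 0.0157), from 9.38 to 7.44 FPKM, but without normal replicate 1 the adjusted p was 0.0532 and without inflamed replicate 1 it was 0.0922. With PM10 present the difference was -0.17 (95% confidence interval -0.36 to 0.02, adjusted p = 0.0956) and was not called.

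The TrkC receptor gene NTRK3 measured 2.25 and 1.87 FPKM in normal hIECs and 2.18 and 1.86 FPKM in inflamed hIECs. These groups overlapped, with a log2 difference of -0.02 (95% confidence interval -0.25 to 0.21, limma adjusted p = 0.88). The lowest values were the 1.33 and 1.44 FPKM of normal hIECs with PM10, and inflamed hIECs with PM10 stood at 2.33 and 2.23 FPKM. Between these last groups NTRK3 rose 1.65-fold (log2 difference 0.46, SE 0.097, adjusted p = 0.00418).

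The GDNF co-receptor gene GFRA1 was the member that rose in both comparisons. It measured 9.22 and 8.33 FPKM in normal hIECs and 9.64 and 9.07 FPKM with PM10, against 16.2 and 16.4 FPKM in inflamed hIECs and 17.7 and 16.8 FPKM in inflamed hIECs with PM10. All 4 libraries with cytokines lay above all 4 without. The rise was 1.86-fold without PM10 (log2 difference 0.83, SE 0.066, limma adjusted p = 4.10e-05) and 1.85-fold with it (0.82, SE 0.066, adjusted p = 3.11e-05). Its partners GDNF and RET were listed at 0 in the same libraries.

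**Figure D3:**
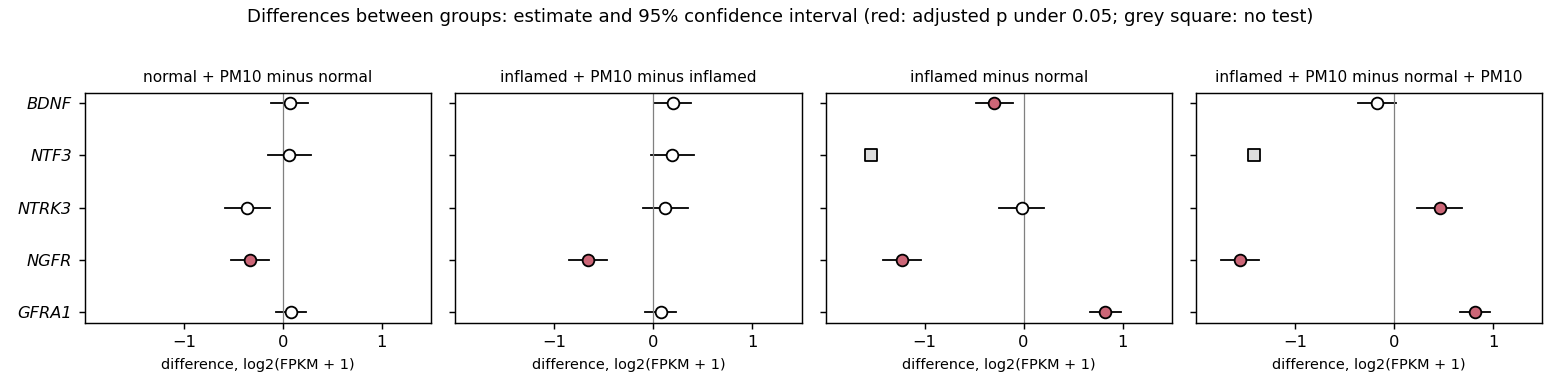
Difference on the log2(FPKM + 1) scale (horizontal axes) for the 5 members with values in every group, in 4 comparisons, with lines for the 95% confidence interval, red points for a limma adjusted p under 0.05 and grey squares where a difference was built into the choice of tested genes and no test is given. NTF3 and NGFR lie left of 0 and GFRA1 right of 0 in both cytokine comparisons, and NGFR lies left of 0 in all 4.

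The comparison of normal hIECs with and without PM10 asked what the particles did in cultures without cytokines. It called 1 of 6 tested members, NGFR, which fell by 0.33 on the log2 scale (SE 0.082, limma adjusted p = 0.048), from 4.09 to 3.04 FPKM. Of all genes, 9.23% were called, 3.72% lower and 5.51% higher, and the median difference was -0.11 for the members and 0.06 for all genes. The NGFR call was lost without any 1 of the 8 libraries, and its adjusted p ran from 0.0263 to 0.185 over the alternatives. NTRK3, at 2.06 and 1.38 FPKM on average, had a log2 difference of -0.36 (95% confidence interval -0.58 to -0.13, adjusted p = 0.0608), and NTRK2, at 2.58 and 1.92 FPKM, one of -0.29 (-0.54 to -0.04, adjusted p = 0.128). For these 3 receptor genes both PM10 libraries lay below both libraries without PM10. BDNF (0.07, -0.12 to 0.26), NTF3 (0.07, -0.15 to 0.28) and GFRA1 (0.08, -0.07 to 0.24) had overlapping libraries, with adjusted p-values from 0.433 to 0.674.

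In inflamed hIECs, PM10 again went with lower NGFR. Of the 5 members with a value, NTRK2 being at 0 on both sides, only NGFR was called, falling 3.10-fold from 1.17 to 0.378 FPKM (log2 difference -0.65, SE 0.082, limma adjusted p = 0.00319), and it was called under every alternative tried that kept the adjusted p as the only criterion. Among all genes, 15.2% were called, 9.02% lower and 6.22% higher, and the median of the 5 members was 0.12, beside -0.01 for all genes. NTF3 was higher in both PM10 libraries, at 0.477 against 0.292 FPKM (0.19, 95% confidence interval -0.02 to 0.41, adjusted p = 0.194), and so was BDNF, at 8.65 against 7.44 FPKM (0.20, 0.01 to 0.38, adjusted p = 0.142), but neither passed the threshold. NTRK3 (0.12, -0.10 to 0.35) and GFRA1 (0.07, -0.08 to 0.23) did not pass it either.

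Whether PM10 acted differently in inflamed and normal cultures was tested by the interaction of both treatments. None of the 6 members was called by limma, against 6.60% of all genes called, 4.48% with a negative and 2.11% with a positive interaction. An unadjusted p under 0.05 was reached by 2 members, and the share of all genes at that looser level is not given here, so this count has no background. For NTRK3 the interaction came to 0.48 on the log2 scale (95% confidence interval 0.16 to 0.80, unadjusted p = 0.00916, adjusted p = 0.0860), and for NGFR to -0.32 (-0.59 to -0.05, unadjusted p = 0.0269, adjusted p = 0.154). The larger difference of NGFR in inflamed than in normal hIECs was thus not shown to be a difference between them. Those of BDNF (0.13, -0.14 to 0.39), NTF3 (0.13, -0.18 to 0.43) and GFRA1 (-0.01, -0.23 to 0.21) were smaller than their intervals. For NTRK2 the term holds only the difference in normal hIECs, since both inflamed groups were at 0.

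Because FPKM is scaled by length, the balance between members can be read within each library. The ligand ratio of BDNF to NTF3 was 3.38 ± 0.00925 (SD, n = 2) in normal hIECs and 3.36 ± 0.246 with PM10, and 25.5 ± 2.38 in inflamed hIECs and 18.2 ± 0.840 with PM10. The receptor ratio of NTRK3 to NGFR was 0.504 ± 0.0574 in normal hIECs, 0.456 ± 0.0210 with PM10, 1.73 ± 0.0161 with cytokines and 6.07 ± 0.718 with both treatments, so that TrkC mRNA was the scarcer of the pair without cytokines and the more abundant with them. The ratio of GFRA1 to BDNF went from 0.938 ± 0.0382 to 2.20 ± 0.0975 with cytokines alone. With cytokines, the ratios over NTF3 divide by values at a depth of 1.32 to 2.31. With both treatments, the ratio over NGFR divides by values at a depth of 1.68 and 1.89. These lie close to the lowest value listed, so the size of those ratios is uncertain despite their small SDs. All ratios are descriptions and were not tested.

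**Figure D4:**
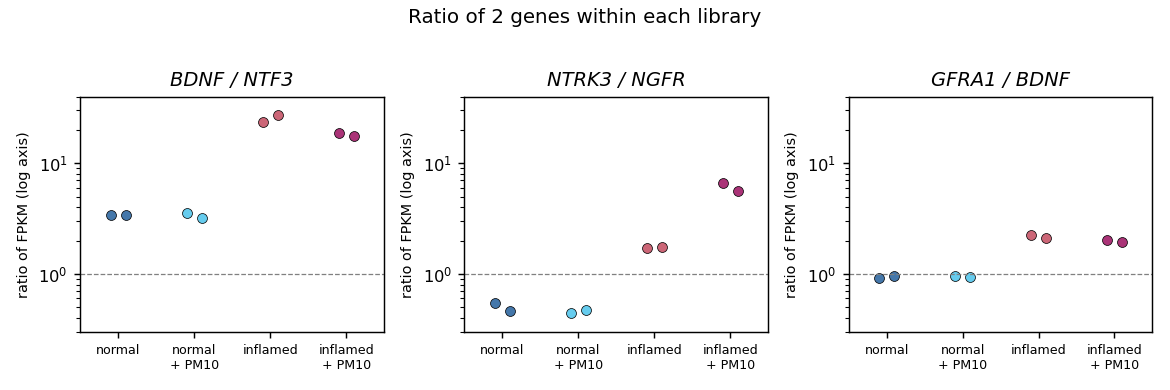
Ratio of FPKM between 2 members within each library (vertical axes, log scale, dashed line at 1), with a point per library. NTRK3 lies below NGFR in the 4 libraries without cytokines and above it in the 4 with cytokines, with the highest ratios, averaging 6.07, in inflamed hIECs with PM10.

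The other genes of these pathways were taken from 7 lists by role, chosen with earlier results of these data known. Of 68 genes 54 passed the minimum, and of these 19 were called higher and 20 lower with cytokines alone, 21 and 21 with cytokines in the presence of PM10, 6 and 2 with PM10 in normal hIECs, and 11 and 3 with PM10 in inflamed hIECs. The shares over all genes tested were 56.2%, 65.4%, 9.23% and 15.2% in the same order. Of the 54 genes, 5 reached the minimum only without or only with cytokines, so a difference between those groups was built into their being tested. Median differences of the 54 ran from -0.08 to 0.08 on the log2 scale.

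Among the ligands outside the members, NTF4, which encodes neurotrophin-4, another TrkB ligand, measured 1.49 and 1.67 FPKM in normal hIECs and 0.767 and 1.17 FPKM with PM10. It was listed at 0 in both inflamed libraries and was at 0.370 and 0 FPKM when PM10 was added. It reached the minimum only through libraries without cytokines, so no test is given. Of its exonic bases, 49.9% are shared with other annotated genes, none of them above 0.398 FPKM.

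Of the GDNF relatives, NRTN, which encodes neurturin, averaged 3.93 FPKM in normal and 0.981 FPKM in inflamed hIECs, and 3.95 and 0.655 FPKM with PM10, with no overlap between libraries with and without cytokines. PSPN, which encodes persephin, lay between 0.545 and 1.07 FPKM. Both reached the minimum only through libraries without cytokines and are given without a test, and ARTN, which encodes artemin, stayed below the minimum. Among the co-receptors, GFRA4 and GFRAL were at 0 throughout, and GFRA3, the artemin co-receptor, was at 0.653 to 0.734 FPKM without cytokines and at 0 in all 4 libraries with them. GFRA2, the neurturin co-receptor, was above 0 in 1 library. NCAM1, an adhesion molecule that can act as a GDNF receptor without RET, averaged 60.2 FPKM in normal hIECs and 36.0 FPKM in inflamed hIECs, falling by 0.72 (SE 0.063, limma adjusted p = 6.33e-05), and it rose by 0.36 with PM10 in inflamed hIECs (adjusted p = 0.0116).

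Of 11 co-receptors and sortilins, 8 were tested. With cytokines alone SORT1, which encodes sortilin, the proneurotrophin co-receptor of p75, rose from 10.7 to 15.4 FPKM (log2 difference 0.49, SE 0.062, limma adjusted p = 0.000414), and 3 genes fell, most of all LINGO1 (-0.76, adjusted p = 2.40e-05), a p75 partner in axon growth inhibition, and then the p75-interacting BEX3 (-0.42, adjusted p = 0.000196). SORT1 rose further with PM10 in inflamed hIECs, to 18.8 FPKM (0.27, adjusted p = 0.0291).

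Of 9 genes for proneurotrophin cleavage 6 were tested, and 3 rose and 2 fell with cytokines. MMP9, a matrix metalloproteinase that can cut proneurotrophins outside the cell, rose from 5.67 to 195 FPKM (log2 difference 4.88, SE 0.052, limma adjusted p = 3.29e-09), and FURIN, the proprotein convertase of the secretory pathway, from 25.1 to 43.0 FPKM (0.75, adjusted p = 5.38e-05). The third, PCSK7, named here after its values were seen, shares 20.6% of its exonic bases with other genes, among them TAGLN at 698 to 1389 FPKM on the opposite strand, and the libraries carried no strand information, so its value is uncertain. PLAT, the tissue plasminogen activator, which starts the plasmin cleavage of proBDNF, fell from 43.7 to 24.4 FPKM (-0.82, adjusted p = 2.77e-05), and the neuroendocrine convertase PCSK2 fell by 1.12 (adjusted p = 6.59e-05).

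**Figure D5:**
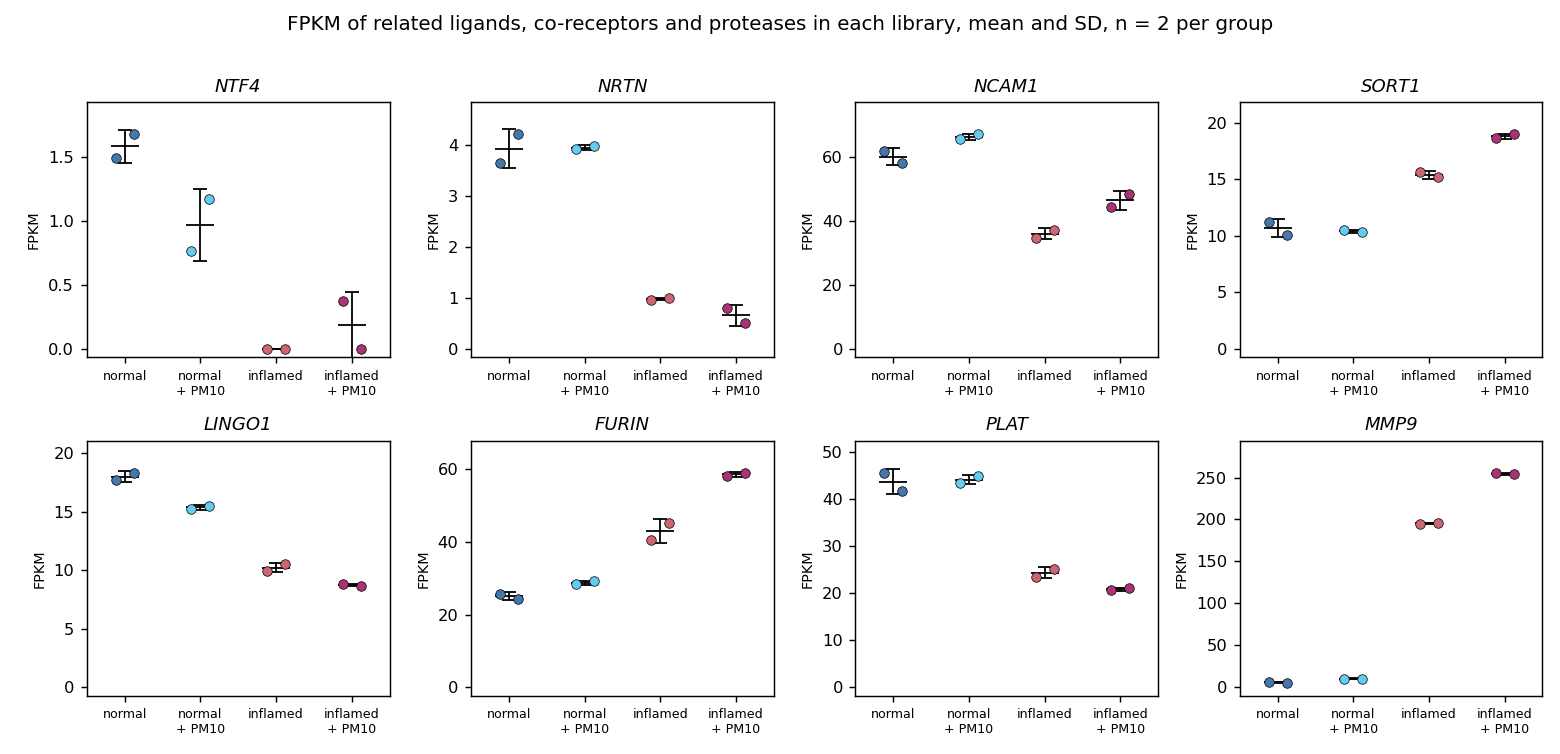
FPKM (vertical axes, each panel with its own scale) of 8 related genes in the 4 groups, with a point per library and bars for the mean and SD of the 2 libraries. NTF4, NRTN, NCAM1, LINGO1 and PLAT are lower and SORT1, FURIN and MMP9 higher in all libraries with cytokines than in all without.

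Of 26 adaptor and proximal signaling genes, 23 were tested, with 9 higher and 8 lower with cytokines alone. SHC2, an adaptor most used in neural tissue, fell from 22.6 to 6.99 FPKM (log2 difference -1.56, SE 0.056, limma adjusted p = 7.53e-07), and DOK5, a docking protein of receptor tyrosine kinases, fell by 0.71 (adjusted p = 0.000544). SH2B3, an adaptor that restrains cytokine and growth factor receptors, rose from 9.95 to 29.1 FPKM (1.46, adjusted p = 1.10e-06). SQSTM1, an autophagy receptor that also binds Trk receptors, rose with cytokines (1.22, adjusted p = 6.65e-07) and with PM10 in normal hIECs, from 51.6 to 98.4 FPKM (0.92, adjusted p = 0.000163).

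Markers of other cell types moved beside these members. Of 13 enteric neural crest and glia markers, 5 were at 0 in all libraries, among them the defining SOX10 and GFAP, and the summed level was 11.9 to 13.2 FPKM in normal hIECs, 7.42 to 8.21 FPKM with PM10, 8.47 to 9.03 FPKM with cytokines and 7.99 to 8.55 FPKM with both treatments. EDNRB, the endothelin receptor of migrating crest cells, was at 0 to 0.224 FPKM in the libraries without cytokines and at 3.83 to 4.41 FPKM in those with them. Of 13 neuronal markers, the 3 named ELAVL3, ELAVL4 and RBFOX3 were at 0 throughout, the summed level ran from 693 to 769 FPKM without and from 712 to 900 FPKM with cytokines, STMN2 fell from 118 to 53.2 FPKM and UCHL1 rose from 336 to 547 FPKM. The summed mesenchymal markers were at 2991 to 3016 FPKM in inflamed hIECs and at 2455 to 2472 FPKM after PM10. In that comparison 6 of 12 tested genes were called lower and 1 higher, beside 9.02% and 6.22% of all genes. Among the lower ones were TWIST1 (-0.81, limma adjusted p = 0.000897), DCN (-0.72, adjusted p = 0.00144) and COL3A1 (-0.59, adjusted p = 0.000334). The higher one was LUM, which rose from 97.6 to 140 FPKM (0.51, adjusted p = 0.000897). NGFR was called lower in the same comparison. The summed smooth muscle markers, mostly ACTA2 and TAGLN, were at 1368 to 1838 FPKM without and 2489 to 2545 FPKM with cytokines. Of the 6 tested genes of that list, 3 were called higher and 1 lower with cytokines alone, beside 25.9% and 30.3% of all genes. The lower one was ACTG2, which fell from 115 to 39.6 FPKM. The summed epithelial markers, mostly KRT8 and KRT18, were at 599 to 652 FPKM without and 287 to 352 FPKM with cytokines. The part of any of these in the differences of NTF3, NTRK2, NGFR and GFRA1 was not tested.

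Likeness to a tested member was measured by the root-mean-square difference of the mean log2 changes against normal hIECs over the 3 other groups. For each of the 6 tested members, genes from among the 3 with the smallest difference are named, not always all of them. For NGFR these were NTS, which encodes neurotensin (0.0391), the long noncoding AC009041.2 (0.0575) and the homeobox gene HOXA2 (0.0766), and 8 genes lay within 0.1. For NTRK2 they were the zinc transporter gene SLC30A3 (0.0372), MAP3K7CL (0.0572) and the hormone gene PRL (0.0633), with 6 genes within 0.1. For NTF3 they were the epoxide hydrolase gene EPHX1 (0.0641), NOXA1 (0.0740) and IGF2-AS (0.0855), with 9 within 0.1. NTRK2 was at 0 in both groups with cytokines, so its change there, -1.83, is bounded by its normal level. SLC30A3, at 2.64 FPKM in normal hIECs, changed by -1.86 in both of those groups, which is likewise the bound set by its normal level. IGF2-AS, named for NTF3 and at 1.81 FPKM in normal hIECs, also lay at its bound, with -1.49 in both. Likeness at such a bound depends on the normal level. More genes lay near the other members, with 468 within 0.1 of BDNF, led by SPATA2 (0.0122), and 38 within 0.1 of NTRK3, led by GTDC1 (0.0188). Within 0.1 of GFRA1 lay 114 genes, among them DDB2 (0.0263) and KHDRBS3 (0.0302). These counts depend on how far a member moved, so they do not rank how particular its pattern was.

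Since the libraries carried no strand information, overlapping genes were checked in GENCODE release 44. NTF3 (chr12:5432108-5521536), NTRK2, NTRK3 (chr15:87859751-88256791) and RET (chr10:43077064-43130351) share no exonic base with another annotated gene. BDNF (chr11:27654893-27722058) shares 12.8% of its exonic bases with BDNF-AS on the opposite strand, which did not exceed 0.494 FPKM. NGFR (chr17:49495293-49515008) shares 27.2% with NGFR-AS1 and 1 gene of uncertain status, both at 0 in every library, and GFRA1 (chr10:116056925-116276803) shares 3.95% with 1 long noncoding RNA of at most 0.458 FPKM. GDNF (chr5:37812677-37840041) shares 14.7% with GDNF-AS1, which was also at 0.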

How the data were processed

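RNA-seq of 8 libraries of H9-derived 2D hIECs was used, 2 per group, grouped by the GEO titles. The authors used poly-A selected, non-stranded paired-end libraries, trimmed the reads with Cutadapt and Sickle, aligned them to GRCh38 with HISAT2 and estimated expression with StringTie. The values the authors deposited are FPKM per gene. The annotation release is not given in the sources used here; 99.5% of gene identifiers matched GENCODE release 44. FPKM keeps no counts, so depth is known only from the lowest value above 0, and no count test was run.

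Values were taken as log2(FPKM + 1). limma 3.58.1 (R 4.3.3) with a variance trend used the 8 libraries together and the 14206 genes that reached 1 FPKM in 2 or more libraries, two-sided, with Benjamini-Hochberg adjustment within each of 5 comparisons and a threshold of 0.05. The fit was checked on simulated data. Alternatives covered pseudocounts, filters, scalings, the variance model, a replicate block, a 2-fold criterion and each library left out. A member at 0 in both groups got no value. Named were all members, up to 3 called genes with the largest change per pathway list and comparison, and up to 3 genes most like each tested member. Marker genes were named as examples. The members and lists were chosen with earlier results of these data known. Promoter windows came from RefSeq (GRCh38.p14), and figures were drawn with matplotlib. Some genes and motifs are not reported here.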

Additional observations from a re-analysis of the deposited data

How the results depend on the processing

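Over 18 alternatives, the lower NGFR and the higher GFRA1 with cytokines were called every time, with and without PM10, as were the higher NTRK3 with cytokines in the presence of PM10 and the lower NGFR with PM10 in inflamed hIECs, the 2-fold criterion aside. With NTF3 and NTRK2 set aside, that criterion left only NGFR in each cytokine comparison and 0 members in both PM10 comparisons. The GFRA1 differences with cytokines, 0.83 and 0.82, fell short of it. The 1 member called with PM10 in normal hIECs became 0 with a pseudocount of 0.1 or 0.5, with either looser filter, with the replicate block, with only the 2 groups compared, and in each of the 8 fits that left out a library (0 to 0). It became 2 with median centring, quantile normalization or rescaling without mitochondrial genes, each adding NTRK3 (adjusted p = 0.0341, 0.0479 and 0.0392). Quantile normalization gave 2 members with PM10 in inflamed hIECs, adding NTF3 (adjusted p = 0.0277), and a pseudocount of 0.1 gave 1 interaction, NGFR (-0.99, adjusted p = 0.0300). BDNF with cytokines alone was not called in 3 of 18 alternatives (adjusted p up to 0.0922) and with cytokines in the presence of PM10 was called in 4 of 18. The causes were not tested.

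Some uncalled differences changed sign. BDNF with PM10 in normal hIECs was -0.002485 under quantile normalization and ran from -0.03385 to 0.174 over the fits without 1 library, where NTF3 ran from -0.0212 to 0.152. NTRK3 with cytokines alone was 0.0591 under quantile normalization and ran from -0.1097 to 0.0713. The GFRA1 interaction was 0.0378 with median centring, 0.0481 with quantile normalization, and ran from -0.0747 to 0.0570. Where a library was left out, the lone library of its group was assumed to vary like the others. Over all members, comparisons and alternatives, 501 differences kept their direction and side of the threshold, 23 lost their call, 9 gained one and 11 changed sign. That tally includes the cytokine comparisons of NTF3 and NTRK2, where a difference was built into their being tested, so it is no measure of how stable the calls were.

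The scaling moved the split of calls over all genes. With PM10 in normal hIECs, 59.7% of the called genes were higher, against 42.9% with median centring and 49.8% with quantile normalization, and for the interaction 32.0% were positive, against 45.7% and 46.6%. The median of all genes with cytokines in the presence of PM10 was -0.11, and -0.19 after rescaling without mitochondrial genes. Deviations of same-numbered libraries correlated by -0.00151 to 0.0793 over the 6 pairs of groups, so no strong shared effect of the replicate number was seen. Whether same-numbered libraries shared a culture or batch is not known from this. The replicate block took the call of NGFR with PM10 in normal hIECs (count 0). With 2 libraries a group, the depth of low genes limits NTF3 and NGFR in inflamed hIECs.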

Other observations

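All 12 genes of the list of feedback regulators and ERK-responsive genes were tested. With cytokines alone 6 were called higher and 3 lower by limma, beside 25.9% and 30.3% of all genes tested. ETV4, an ETS transcription factor induced downstream of receptor tyrosine kinases, rose from 5.18 to 9.61 FPKM (log2 difference 0.78, adjusted p = 0.000126), and SPRY4, a Sprouty inhibitor of the same pathway, rose from 7.64 to 13.3 FPKM (0.72, adjusted p = 2.57e-05). DUSP4, a phosphatase that inactivates ERK, fell from 2.50 to 1.21 FPKM (-0.67, adjusted p = 0.000300).

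With PM10, 1 gene of this list was called lower in normal hIECs, and 1 was called higher and 2 lower in inflamed hIECs. The lower ones in inflamed hIECs were SPRY2 (-0.43, limma adjusted p = 0.00490) and CBLB (-0.46, adjusted p = 0.0125). ETV4 fell with PM10 in normal hIECs, from 5.18 to 3.22 FPKM (-0.55, limma adjusted p = 0.00924), and stood at 9.61 and 9.65 FPKM in inflamed hIECs without and with PM10, and its interaction was called (0.56, adjusted p = 0.0306). DUSP4 rose with PM10 in inflamed hIECs to 2.53 FPKM (0.68, adjusted p = 0.00241) and was at 2.50 and 2.81 FPKM in normal hIECs without and with PM10, with an interaction of 0.56 (adjusted p = 0.0319). These were the 2 called interactions of the list, and 10 genes had none.

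Of the marker lists not described above, the endothelial list had 5 of 7 genes at 0 throughout, PECAM1, CDH5, KDR, VWF and CLDN5, and the leukocyte list 2 of 6, CD3E and CD14. The summed leukocyte markers were at 1.19 to 1.81 FPKM without cytokines, 3.58 to 3.62 FPKM in inflamed hIECs and 7.21 to 8.10 FPKM in inflamed hIECs with PM10. LCP1 carried most of this, at means of 0.499, 3.23 and 6.19 FPKM in normal hIECs, inflamed hIECs and inflamed hIECs with PM10, with CD68 at 1.11 and 1.83 FPKM in the last group, while PTPRC and CD79A were above 0 in the libraries without cytokines and at 0 in the 4 with them.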
